A study of Mus musculus with 12 samples.

Results

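The genes described here are 4 structural noncoding RNAs and 1 messenger RNA whose counts vary together in a mouse hippocampus dataset: Rn18s-rs5, Rn7sk, Rmrp, Rpph1 and Lars2. They are 5 of the 44760 genes listed in both deposited count tables. They were chosen by their measured counts, which differ between libraries and between the tables, so those differences are described below without a test. Lars2 was added because its row follows the others.

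RNA came from the hippocampus of male APPswe/PS1dE9 mice on a C57BL/6 background. These mice carry a mutant human amyloid precursor protein and presenilin 1 lacking exon 9, and they served as the only genotype, so saline controls carry both transgenes too. Osmotic pumps under the skin delivered nicotine hydrogen tartrate (48 mg/kg/h as labelled) or saline for 14 days, in mice of 7 or 18 months. Each of the 4 groups has 3 libraries, 12 in all, and the 7-month and 18-month libraries stand in separate tables.

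Structural RNAs act as RNA rather than as templates for protein. The 18S ribosomal RNA forms the core of the small ribosomal subunit and is transcribed by RNA polymerase I within a long precursor. Rn7sk, Rmrp and Rpph1 are short nuclear or nucleolar transcripts of RNA polymerase III: the first holds the elongation kinase P-TEFb inactive, and the other two are the RNA subunits of RNase MRP, which processes ribosomal RNA precursors, and RNase P, which trims the leaders of tRNA precursors. Lars2 is different in kind, a nuclear gene for the enzyme that charges mitochondrial leucine tRNA.

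Total counts per library were 25071195 to 29245972 at 7 months and 21260068 to 23715015 at 18 months. The labels' protocol describes a small-RNA kit and single-end sequencing, while genes whose longest annotated transcript exceeds 5000 nt took 23.2% to 36.9% of the counts with a known length. The length of the molecules sequenced was not measured. Those genes took 23.2% to 32.5% of these counts at 7 months, highest in saline library 2, and 36.0% to 36.9% at 18 months. All 6 neuronal and all 6 hippocampal marker genes checked were found in every group, and the neuronal sum was 4245 to 5108 CPM at 7 months and 4413 to 5381 CPM at 18 months. CPM are a gene's counts scaled to a common library total. Labels do not say whether libraries of a group came from separate animals, so p-values measure the spread between libraries only.

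Rn18s-rs5 is named as an 18S ribosomal RNA related sequence, and RefSeq (GRCm38.p6) lists it as a pseudogene at chr17:39846354-39848202. Nuclear ribosomal RNA genes have many near-identical copies, so its counts are uncertain as the product of that locus. Saline libraries 1, 2 and 3 had 455, 512 and 17602 CPM at 7 months, and nicotine libraries 1, 2 and 3 had 532, 690 and 8110 CPM. At 18 months the saline libraries had 23948, 22840 and 27437 CPM and the nicotine libraries 22700, 26279 and 22224 CPM. Both libraries numbered 3 were high at 7 months, the 4 others were low, and all 18-month libraries lay above every 7-month library. The lower of the libraries numbered 3 was 11.8 times the highest of the other 7-month libraries, and the 18-month mean was 44.3 times the mean of those 4.

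Rn7sk, the 7SK RNA, lies on the minus strand of chr9:78175303-78175633 (GRCm38, GENCODE M21; single-exon transcript). Its first 120 bases are shown because the 5′ hairpin there binds Hexim proteins, with the GATC steps known from that hairpin in capitals; a script found 3 of them.
Rn7sk: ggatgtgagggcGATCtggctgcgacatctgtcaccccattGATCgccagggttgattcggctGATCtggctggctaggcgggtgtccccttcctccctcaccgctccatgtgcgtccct
Saline libraries at 7 months had 1.64, 1.36 and 61.0 CPM of Rn7sk and nicotine libraries 1.69, 2.18 and 35.7 CPM. The 18-month values were 156, 182 and 251 CPM with saline and 158, 202 and 195 CPM with nicotine. The order of the libraries was again low, high and highest with no overlap between the 3 sets, and the step was larger than for Rn18s-rs5. The 18-month mean was 111 times that of 7-month libraries 1 and 2, and 3.94 times that of the libraries numbered 3, where Rn18s-rs5 had 1.89.

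Rmrp (whole) and Rpph1 (its first 280 bases) are shown because both are catalytic RNAs that share protein subunits, and the bases in capitals are the 2 longest stretches common to them, 9 bases each. Rmrp lies at chr4:43492788-43493058 and Rpph1 at chr14:50807449-50807767, both on the minus strand (GRCm38, GENCODE M21), and each transcript is a single exon.
Rmrp: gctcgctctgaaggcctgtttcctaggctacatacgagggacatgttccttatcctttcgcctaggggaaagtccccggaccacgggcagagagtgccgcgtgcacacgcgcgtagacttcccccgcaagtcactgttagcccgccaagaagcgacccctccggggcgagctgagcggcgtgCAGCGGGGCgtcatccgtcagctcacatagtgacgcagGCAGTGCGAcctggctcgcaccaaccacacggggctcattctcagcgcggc
Rpph1: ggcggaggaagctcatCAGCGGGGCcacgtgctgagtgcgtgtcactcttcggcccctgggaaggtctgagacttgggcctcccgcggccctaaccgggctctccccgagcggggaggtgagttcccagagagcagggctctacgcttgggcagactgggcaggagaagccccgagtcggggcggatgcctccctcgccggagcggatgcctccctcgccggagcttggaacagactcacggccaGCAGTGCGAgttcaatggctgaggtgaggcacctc

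Rmrp had 2, 2 and 194 counts in the 7-month saline libraries and 4, 5 and 85 in the nicotine libraries, which is 0.0684, 0.0798 and 7.03 CPM against 0.138, 0.194 and 3.21 CPM. At 18 months it had 6.06, 8.42 and 10.6 CPM with saline and 6.16, 8.70 and 8.17 CPM with nicotine. The 7-month saline library 3 therefore lay inside the 18-month range, unlike for Rn18s-rs5 and Rn7sk. The 18-month mean was 66.8 times that of 7-month libraries 1 and 2, a fold that rests on 13 counts in those 4 libraries.

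Rpph1 had 7, 2 and 238 counts in the 7-month saline libraries and 2, 5 and 122 in the nicotine libraries, or 0.239, 0.0798 and 8.63 CPM against 0.0690, 0.194 and 4.61 CPM. The 18-month libraries had 8.30, 9.50 and 13.9 CPM with saline and 7.63, 8.56 and 10.7 CPM with nicotine. Saline library 3 at 7 months again overlapped the 18-month range. The fold between the 18-month mean and the mean of 7-month libraries 1 and 2 was 67.0, from 16 counts in the latter.

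Lars2 followed Rn18s-rs5 most closely. Its 7-month saline libraries had 101, 111 and 3938 CPM and its nicotine libraries 107, 144 and 1684 CPM. At 18 months they had 5270, 5159 and 6110 CPM with saline and 5274, 6356 and 5237 CPM with nicotine. Just as for Rn18s-rs5, the 3 sets of libraries did not overlap, and the 18-month mean was 48.1 times the mean of 7-month libraries 1 and 2. Together the 5 genes took 0.0557% to 0.0836% of all counts in 7-month libraries 1 and 2, 0.984% and 2.16% in the libraries numbered 3, and 2.77% to 3.38% at 18 months. Exact (Clopper-Pearson) 95% intervals on such shares, like all intervals on ratios below, cover counting error only, and that of the highest share ran from 3.37% to 3.39%.

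**Figure D1:**
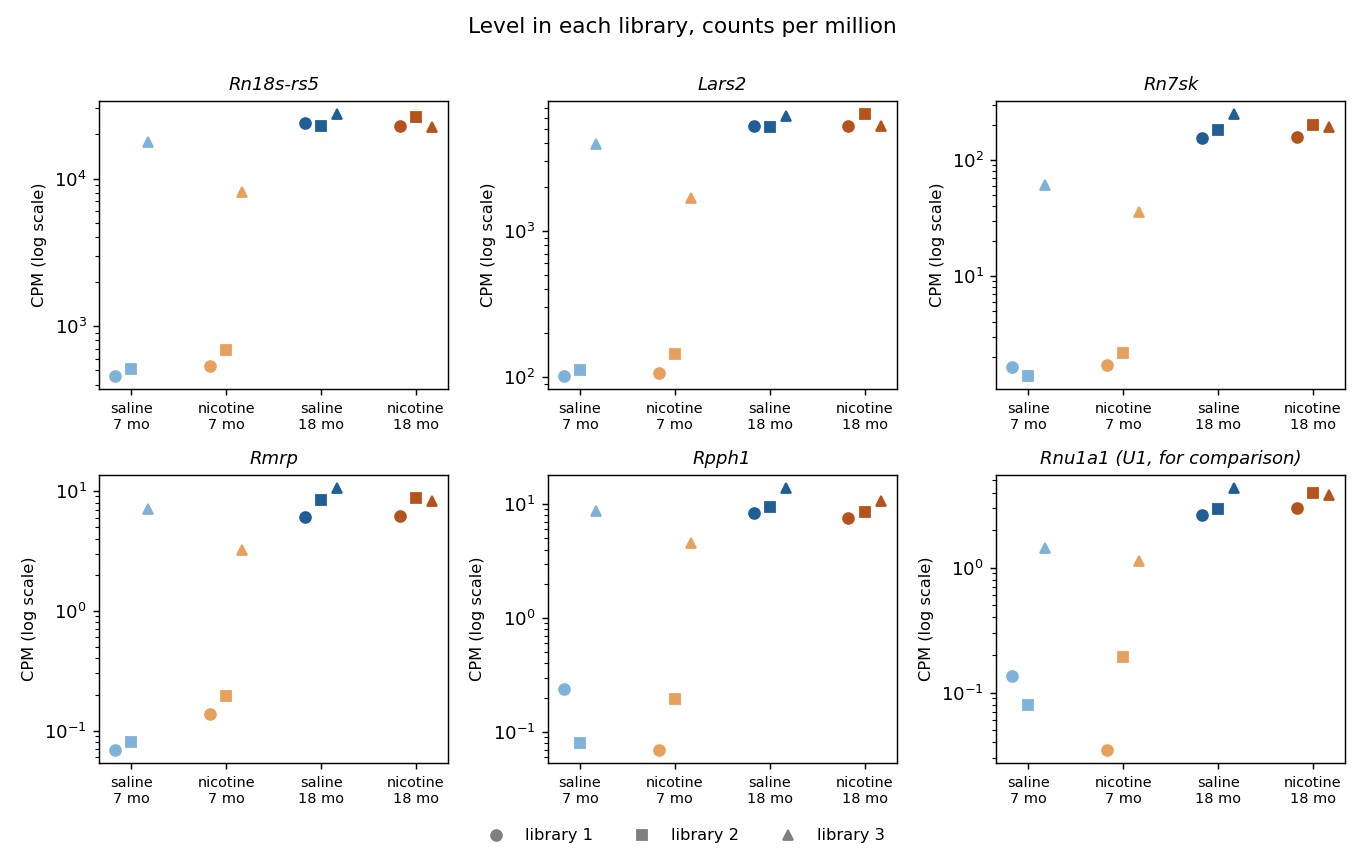
Level of the 5 genes and of Rnu1a1 (U1 small nuclear RNA) in each of the 12 libraries, in CPM on a log axis, by treatment and age; circles, squares and triangles are libraries 1, 2 and 3. In each panel both 7-month libraries numbered 3 lie above the other 4 7-month libraries, and for Rmrp and Rpph1 the saline one reaches the 18-month range (7.03 CPM and 8.63 CPM).

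The 18-month and 7-month samples differ in table and in library set as well as in age, so age and preparation cannot be told apart for these genes. In bulk tissue, fewer cells of a type and less RNA per cell cannot be told apart either. The level of 18-month libraries varied little: the highest was 1.23 times the lowest for Rn18s-rs5 and for Lars2, 1.61 for Rn7sk, 1.75 for Rmrp and 1.82 for Rpph1. The spread at 7 months was far wider because of the libraries numbered 3: the coefficient of variation over the saline libraries was 160% for Rn18s-rs5, against 9.70% at 18 months.

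Among genes above a limit on level, the libraries numbered 3 stood apart for very few. Of 15612 genes with a mean of at least 1 CPM over the 12 libraries, 250 (1.60%) had both libraries numbered 3 above the other 7-month libraries, and 6 did so by more than 8-fold. Those 6 were the 5 genes described here and Mir6236, the row of a microRNA gene, which was named after its values were seen. The 5 genes were chosen for differing between libraries, so their place among the 6 is a description and not a test. Genes under the limit of 1 CPM were not counted. Rnu2-10, under that limit and also named after its values were seen, had 0.0342 to 0.12 CPM in 7-month libraries 1 and 2. It had 1.21 and 1.49 CPM in libraries 3 and 0.0941 to 0.571 CPM at 18 months. Mir6236 had 0.547, 0.638 and 28.6 CPM in the 7-month saline libraries and 0.621, 1.01 and 16.2 CPM in the nicotine libraries. At 18 months it had only 5.45 to 8.23 CPM, below the 7-month libraries numbered 3 and above the others, an order that none of the 5 genes showed. Its mature sequence (RefSeq, GRCm38.p6 table; chr9:110281353-110281371, plus strand) is shown to identify the row, with the seed, bases 2 to 8, in capitals.
miR-6236: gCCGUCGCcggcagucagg

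Cell type markers were summed over the same libraries. Neuronal markers summed to 4376 and 4674 CPM in the libraries numbered 3 and to 4245 to 5108 CPM in the other 7-month libraries. The ranges overlapped for all 9 marker lists checked. Endothelial markers (3 of 3 found) summed to 82.4 and 98 CPM against 74.9 to 110 CPM, and oligodendrocyte markers (4 of 4) to 3859 to 5086 CPM against 3030 to 4812 CPM. Choroid plexus markers (6 of 6 found) ranged from 427 to 1564 CPM in libraries 3 and from 54.9 to 6105 CPM in the others. Whether cell composition had a part in the high 7-month libraries was not tested. Between the ages, astrocyte markers (4 of 4) were 2282 to 3372 CPM at 7 months and 4386 to 5001 CPM at 18 months, and blood markers (4 of 4) 133 to 326 CPM and 32.2 to 125 CPM. The part of astrocyte or blood markers in the age differences was not tested. Library descriptions give a B prefix to both 7-month libraries numbered 1 and a C prefix to the 4 others, which hold both high and low libraries. The part of the prefix in these levels was not tested.

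Other structural RNAs did not all behave alike. Of 163 rows recognised by name as structural RNA (Lars2 not among them), 19 were at 0 in every library and 18 had a mean of at least 1 CPM, of which 14 are not members. Of those 14, only Rnu1a1 (U1 small nuclear RNA, which recognises 5′ splice sites) and Rn4.5s had both libraries numbered 3 above the other 7-month libraries. Rnu1a1 had 0.0345 to 0.194 CPM in 7-month libraries 1 and 2, 1.13 and 1.45 CPM in libraries 3, and 2.64 to 4.36 CPM at 18 months. Its low values rest on 1 to 5 counts per library. Rn4.5s differed far less, with 0.583 to 1.24 CPM, 1.34 and 1.51 CPM, and 1.32 to 1.71 CPM. As a class, the 16 small nuclear RNA rows without Rn7sk, Rnu1a1 among them, summed to 0.878 to 1.2 CPM in 7-month libraries 1 and 2. They summed to 3.44 and 4.17 CPM in libraries 3 and to 3.43 to 5.59 CPM at 18 months. The sum of this class thus also had both libraries 3 above the other 7-month libraries. The small Cajal body RNA Scarna9 was 0 to 0.233 CPM in all other 7-month libraries, 0.0756 and 0.145 CPM in libraries 3 and 1.88 to 2.59 CPM at 18 months, so it was high in the 18-month table alone.

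Small nucleolar RNAs, which guide modification of ribosomal RNA, had a lower sum at 18 months. As a class they summed to 69.1 to 78.8 CPM in 7-month libraries 1 and 2, 74.4 and 74.9 CPM in libraries 3, and 52.2 to 59.3 CPM at 18 months. Of the 11 with a mean of at least 1 CPM, 4 (Snora61, Snora65, Snord104 and Snord96a) were lower in every 18-month library than in every 7-month library, as were 23.2% of all 15612 genes at that level. Snora7a had a mean of 2.52 CPM at 18 months, against 1.60 CPM in 7-month libraries 1 and 2 and 2.35 CPM in libraries 3. Its 18-month libraries ran from 0.773 to 4.7 CPM, around the whole 7-month range of 1.12 to 3.19 CPM. Snord91a differed little, with means of 3.89 CPM at 18 months and 4.18 CPM in 7-month libraries 1 and 2. Snord104 had a mean of 2.23 CPM in 7-month libraries 1 and 2, 2.78 CPM in libraries 3 and 0.767 CPM at 18 months. The mitochondrial ribosomal RNA genes Rnr1 and Rnr2 summed to 5668 to 6856 CPM, 7074 and 7638 CPM, and 5820 to 7562 CPM in the same 3 sets, a range far narrower than that of Rn18s-rs5. Malat1, a nuclear long noncoding RNA, was 273 to 374 CPM in 7-month libraries 1 and 2, 324 and 373 CPM in libraries 3 and 5071 to 6326 CPM at 18 months. Malat1 thus shared the difference between the tables with the 5 genes but not the difference among 7-month libraries.

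Likeness between genes was measured as the standard deviation (SD), over the 12 libraries, of the log2 ratio of one gene to another, for 15558 genes with a mean of at least 1 CPM and at least 1 count in every library. A small SD means a constant ratio. The SD of Lars2 to Rn18s-rs5 was 0.08, that of Rmrp 0.49, of Rn7sk 0.66 and of Rpph1 0.68, while the median over all genes was 2.66. For each of the 5 genes, the other 4 were among its 5 nearest genes, and the fifth was Rnu1a1, with an SD of 0.62 to Lars2, 0.63 to Rn18s-rs5, 0.76 to Rpph1, 0.91 to Rn7sk and 0.92 to Rmrp. Counts of 1 to 5 in 7-month libraries 1 and 2 limit the ratios of Rnu1a1. The members were chosen for this pattern, the libraries share the 3-step structure described above, and the SD is a description with no test. In the 6 libraries of 7 months alone, Rnu1a1 was under the limit of 1 CPM and was not ranked. There Mir6236 was among the 5 nearest and was the nearest gene to Rn7sk (SD 0.22) and to Rmrp (SD 0.42).

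**Figure D2:**
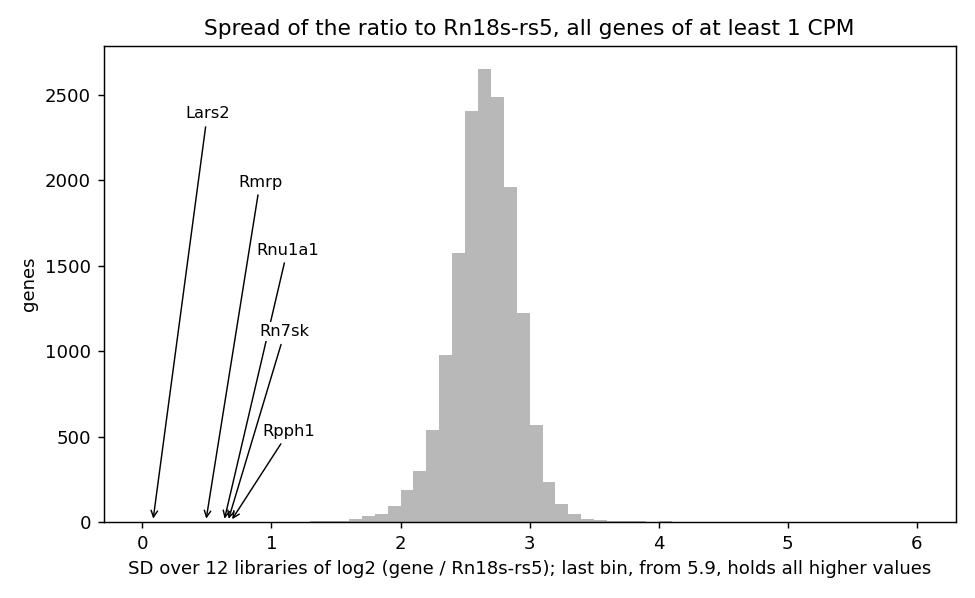
Number of genes (y axis) by the SD over 12 libraries of the log2 ratio of the gene to Rn18s-rs5 (x axis), for genes with a mean of at least 1 CPM. The 5 nearest genes are marked: Lars2 at 0.08, Rmrp at 0.49, Rnu1a1 at 0.63, Rn7sk at 0.66 and Rpph1 at 0.68, all left of the bulk of genes around the median of 2.66.

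The ratio of Lars2 to Rn18s-rs5 was nearly fixed. Lars2 had 20.1 to 24.2 counts per 100 counts of Rn18s-rs5 over all 12 libraries, while Rn18s-rs5 itself ran from 12837 to 603681 counts. Pooled over 7-month libraries 1 and 2 the ratio was 21.1 per 100 (exact 95% interval 20.7 to 21.6), over libraries 3 it was 21.9 (21.8 to 22.0) and over the 18-month libraries 23.0 (22.9 to 23.0). A 44.3-fold range in mean level went with a change of the pooled ratio from 21.1 to 23.0. Pooling mixes the infusions: group means at 7 and 18 months were 22.1 and 22.3 with saline, and 20.6 and 23.7 with nicotine.

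**Figure D3:**
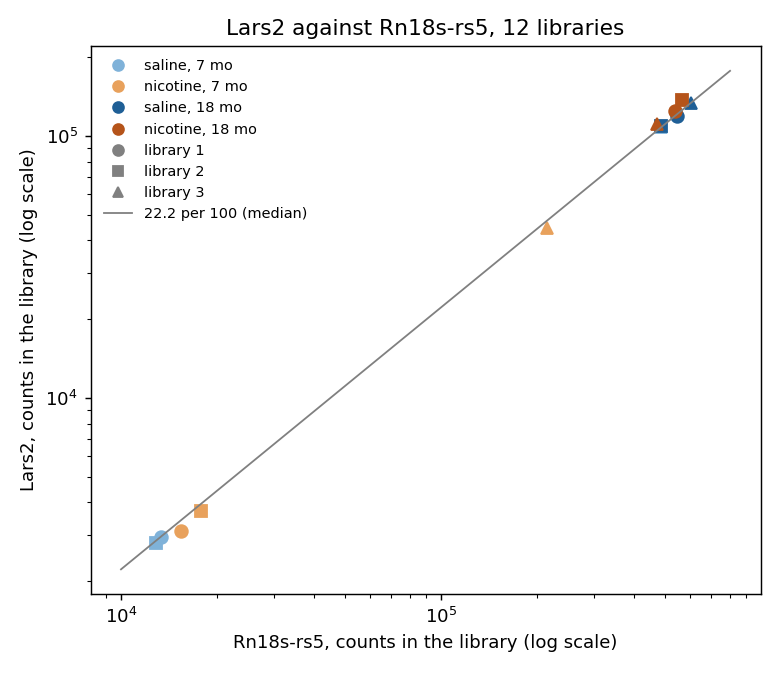
Counts of Lars2 (y axis) against counts of Rn18s-rs5 (x axis) in each of 12 libraries, both on log axes, coloured by group and shaped by library number; the line is the median ratio of 22.2 per 100. All libraries, from 12837 to 603681 counts of Rn18s-rs5, lie close to the line.

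Ratios of the polymerase III transcripts to Rn18s-rs5 moved more. Rn7sk had 2.65 to 3.61 counts per 1000 of Rn18s-rs5 in 7-month libraries 1 and 2, 3.47 and 4.40 in libraries 3, and 6.53 to 9.15 at 18 months, so that every 18-month ratio lay above every 7-month ratio. Rmrp had 15 to 28.2 counts per 100000 in 7-month libraries 1 and 2, 39.6 and 40 in libraries 3, and 25.3 to 38.8 at 18 months. Its low 7-month values rest on 2 to 5 counts, and the exact interval of the lowest ran from 1.82 to 54.4. Pooled over those 4 libraries the ratio of Rmrp was 21.9 (exact 95% interval 11.7 to 37.5), against 39.9 (35.3 to 44.8) over libraries 3.

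The RNA subunits of RNase MRP and RNase P were also set against each other. In pooled counts, Rmrp had 0.812 counts per count of Rpph1 in 7-month libraries 1 and 2 together (exact 95% interval 0.360 to 1.80), 0.775 in libraries 3 (0.660 to 0.909) and 0.821 at 18 months (0.756 to 0.891). These intervals overlap. Single 7-month libraries varied, with 2 counts of Rmrp beside 7 of Rpph1 in saline library 1 and 4 beside 2 in nicotine library 1, and the SD of the log2 ratio over the 12 libraries was 0.63, against 0.57 for Rmrp and Rn7sk. In pooled counts, Rn7sk had 14.4, 9.41 and 23.8 counts per count of Rmrp in the same 3 sets, so its 18-month level stood higher over the 7-month libraries numbered 3 than that of Rmrp.

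**Figure D4:**
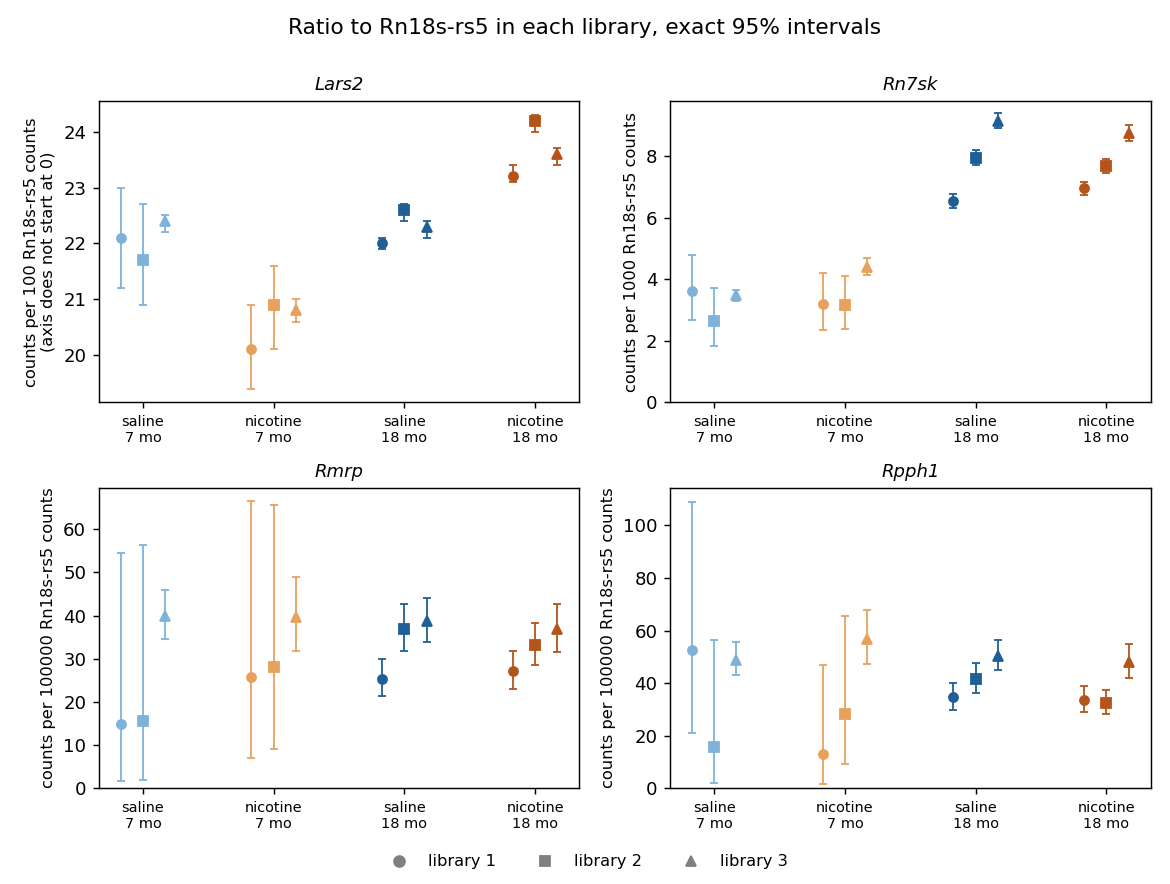
Counts of Lars2, Rn7sk, Rmrp and Rpph1 per 100, 1000 or 100000 counts of Rn18s-rs5 in each library, with exact 95% intervals of counting error; the Lars2 axis does not start at 0. Lars2 stays between 20.1 and 24.2 per 100, and Rn7sk lies at 2.65 to 4.40 per 1000 at 7 months and at 6.53 to 9.15 at 18 months.

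Lars2 was compared with the other genes of its family. Mitochondrial aminoacyl-tRNA synthetases attach amino acids to tRNAs inside mitochondria. Compared per length, mean Lars2 was 29.7 CPM per kb in 7-month libraries 1 and 2, 722 in libraries 3 and 1430 at 18 months. The highest of 18 other genes of the mitochondrial synthetase list with a length was Gatc, a subunit of the glutamyl-tRNA amidotransferase, named after its values were seen. It had 16.0, 16.4 and 15.8 CPM per kb in those sets. Lars2 was therefore 1.86, 44.0 and 90.5 times the highest other gene. Lars, the cytosolic leucyl-tRNA synthetase, had 12.5, 12.5 and 12.9 CPM per kb, with no step like that of Lars2.

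The GENCODE M21 transcript of Lars2 (3894 nt) ends in a 3′ untranslated part of 989 nt at chr9:123461676-123462664 on the plus strand. This stretch was aligned to the mitochondrial large ribosomal RNA gene mt-Rnr2 and to GENCODE M21 transcripts of Gm42418, AA474408 and Gm15564, of which the last pair was picked after a first look at the matches. A 19-base stretch matched mt-Rnr2 at 89.5% identity (BLAST E value 0.016), and both are printed with the matching bases in capitals and the differing ones in lower case, to show how alike they are. The Lars2 stretch lies in the 3′ UTR at chr9:123461950-123461968 and the mt-Rnr2 stretch at chrM:2362-2380.
Lars2: AAGTTACCacAGGGATAAC
mt-Rnr2: AAGTTACCctAGGGATAAC
A second match of 16 bases (87.5% identity, E value 0.67) followed at the same offset. The same 3′ UTR of Lars2 matched transcripts of AA474408 over 97 bases (94.8% identity) and of Gm15564 over 72 bases (98.6% identity). The transcript of Gm42418, the GENCODE gene at the Rn18s-rs5 locus, had 1 match of 11 bases (E value 0.77) where mt-Rnr2 had 3, and neither had a match at an E value of at most 0.01. Sequences of the nuclear ribosomal RNA precursor were not used here, so neither Lars2 nor miR-6236 was compared with them. These matches describe the sequences, and whether reads of another RNA were counted as Lars2 was not tested.

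Polyadenylation signals differ between the genes. The hexamer AATAAA, the usual signal for cleavage and poly(A) addition, was searched on the transcript strand in the last 50 bases of each transcript. It is present in Lars2, starting 19 bases before the end, and in 59.2% of 21877 protein-coding genes. It was not found in those bases of Rn7sk, Rmrp, Rpph1, Rnu1a1 or Gm42418. The RefSeq promoter table (250 bases before to 50 after the start) held 1 of the 5 genes, Lars2. That window, searched on both strands, did not hold the TATA-box letters TATAAA, which 13.6% of 32851 promoters hold. It also did not hold the variant TATATA, found in 5.67% of promoters. The octamer letters ATTTGCAT, found in 1.74%, were not in it either.

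Whether nicotine changed the 5 genes was read from edgeR fits across all genes, with Benjamini-Hochberg adjusted p-values. At 7 months 3 of the 5 passed the filter on low counts (Rmrp and Rpph1 did not), and 0 of the 3 passed the test. The test called 0.0114% of 17596 genes there (2 genes), with 1144 at an unadjusted p under 0.05 and 85 calls by DESeq2. Rn18s-rs5 had a log2 fold change of -1.0 (SE 1.55, 95% interval -4.61 to 2.61, adjusted p = 0.801), Lars2 of -1.11 (SE 1.56, -4.74 to 2.53, adjusted p = 0.78) and Rn7sk of -0.70 (SE 1.58, -4.37 to 2.97, adjusted p = 0.863). The groups overlapped for all 5 genes, each holding 1 high and 2 low libraries, and 16.8% of genes had groups that did not overlap. Without both libraries numbered 3 the signs turned, to 0.37 for Rn18s-rs5, 0.27 for Lars2 and 0.39 for Rn7sk. With the library number as a block in the fit, the log2 changes were -0.13 for Rn18s-rs5, -0.23 for Lars2 and -0.13 for Rn7sk.

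At 18 months all 5 genes passed the filter and 0 of 5 passed the test, where 0.044% of 18196 genes did (8 genes, with 1225 at an unadjusted p under 0.05 and 60 calls by DESeq2). The log2 fold changes were small and their intervals narrow. They were -0.05 for Rn18s-rs5 (SE 0.11, -0.30 to 0.20, adjusted p = 0.969), 0.04 for Lars2 (SE 0.11, -0.20 to 0.28, adjusted p = 0.977) and -0.08 for Rn7sk (SE 0.16, -0.44 to 0.29, adjusted p = 0.967). Rmrp had -0.11 (SE 0.20, -0.58 to 0.35, adjusted p = 0.958) and Rpph1 -0.23 (SE 0.20, -0.67 to 0.22, adjusted p = 0.897). The groups overlapped for each gene, and 11.4% of all genes had groups that did not.

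The difference of the nicotine effect between ages had log2 values from 0.64 for Rn7sk (SE 1.68, adjusted p = 0.908) to 1.16 for Lars2 (SE 1.74, adjusted p = 0.822), and 0 of 5 genes passed. In this comparison 0.00522% of 19171 genes did (1 gene, with 1504 at an unadjusted p under 0.05 and 37 calls by DESeq2). The interval for Lars2 ran from -2.64 to 4.95, so the libraries leave large differences possible in both directions.

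**Figure D5:**
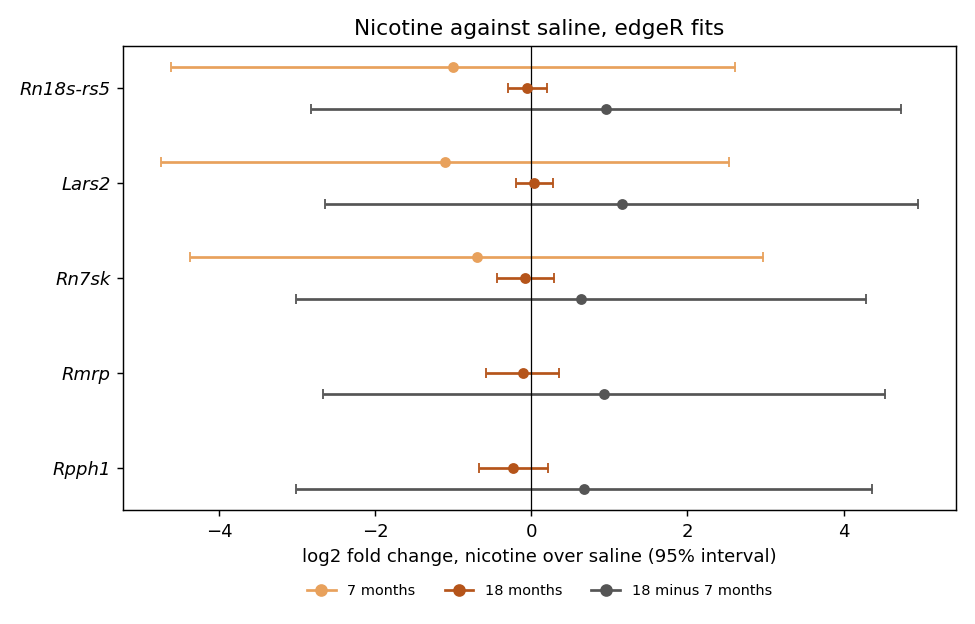
Log2 fold change of nicotine over saline at 7 months, at 18 months and the difference between ages, with 95% intervals from the edgeR fits; Rmrp and Rpph1 have no 7-month value because they did not pass the filter. Every interval spans 0, and those at 7 months and of the difference are several times wider than those at 18 months, where Rn18s-rs5 has -0.30 to 0.20.

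Genes for proteins that make, bind or process these RNAs were compared over the same libraries. Over 8 lists, medians of the ratio of 7-month libraries 3 to the other 7-month libraries ran from 0.965 (RNA polymerase III factors) to 1.06 (protein subunits of RNase P and MRP), and 1 gene, Zcchc7 in the exosome list (named after its values were seen), had both libraries 3 above the others. That is 1 of 154 listed genes, where 1.60% of all genes did so, and the median ratio over all genes was 0.968. The test of nicotine against saline called 0 genes of any list at 7 months, at 18 months or in the difference between ages, where the shares of all genes called were as above.

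Between the ages many listed genes differed, as did 46.1% of all 19171 genes with saline (21.5% higher and 24.6% lower at 18 months) and 59.3% with nicotine (29.5% higher and 29.8% lower). All adjusted p-values here are edgeR's, and age cannot be told apart from the table. Genes whose longest annotated transcript exceeds 5000 nt took 23.2% to 32.5% of counts with a known length at 7 months and 36.0% to 36.9% at 18 months. The part of transcript length in the differences below was not tested. Proteins of the 7SK particle and P-TEFb moved in both directions. With saline 3 of 11 were higher and 4 lower at 18 months (median log2 -0.18, against -0.03 over all genes), and with nicotine 3 were higher and 6 lower. The cyclins of P-TEFb rose, Ccnt1 from 11.4 ± 7.32 to 28.1 ± 0.535 CPM with saline (SD, n = 3; log2 1.30, SE 0.29, adjusted p = 0.00411), and Ccnt2 by log2 0.66 with saline and 1.42 with nicotine. The kinase of P-TEFb, Cdk9, fell from 128 ± 29.5 to 87.9 ± 1.27 CPM (log2 -0.56, SE 0.14, adjusted p = 0.00802). Hexim1, the inhibitor that 7SK RNA presents to P-TEFb, fell by 0.31 with saline and 0.34 with nicotine on the log2 scale. The count of 4 lower genes with saline became 2 without 7-month saline library 3 or 18-month saline library 3, and 1 without both 7-month libraries numbered 3 or numbered 1.

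Protein subunits of RNase P and RNase MRP were mostly lower at 18 months. With saline 8 of 11 tested fell and 0 rose (median log2 -0.67), and with nicotine 9 fell and 1 rose (median -0.98). Pop5 fell from 62.9 ± 17.3 to 27.3 ± 1.29 CPM with saline (SD, n = 3; log2 -1.22, SE 0.17, adjusted p = 0.000391). Rpp38 fell from 45.7 ± 10.8 to 21.5 ± 1.73 CPM (log2 -1.11, SE 0.15, adjusted p = 0.000329), and Pop7 and Rpp21 fell as well. Pop1, the scaffold protein, was the gene that rose with nicotine (log2 0.49), and it was named after its values were seen. That call was lost with structural RNAs left out of the library sizes, with no filter, without both 7-month libraries numbered 3, and without any of 5 single libraries (7-month nicotine 2 or 3, 18-month nicotine 1 or 2, 18-month saline 3). When libraries were left out in turn, 6 to 9 of the 11 were lower with saline.

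Of 18 other mitochondrial synthetase genes tested, 1 rose (2 without 7-month saline library 2) and 5 fell with saline (median log2 -0.15) and 2 rose and 11 fell with nicotine (median -0.33). Mars2, for methionine, rose from 5.29 ± 1.82 to 9.97 ± 1.63 CPM with saline (SD, n = 3; log2 0.91, SE 0.21, adjusted p = 0.00446). Yars2, for tyrosine, fell from 15.2 ± 1.28 to 10.2 ± 1.49 CPM (log2 -0.60, SE 0.12, adjusted p = 0.00277). The saline count of 5 became 2 without 7-month saline library 1 or 3 and without both 7-month libraries numbered 3 or numbered 1, and 3 without 18-month saline library 2 or 3. Of the 20 cytosolic synthetases, 1 rose and 8 fell with saline, and 2 rose and 14 fell with nicotine. Without single saline libraries the cytosolic count of 8 ran from 2 (7-month library 3) through 3 (7-month library 1, 18-month library 2) and 4 (18-month library 1 or 3) to 12, and the count of higher genes, 1 (Eprs) with all libraries, from 0 to 2. The 14 lower with nicotine became 9 without nicotine library 1 of either age or without both 7-month libraries numbered 1. Proteins that handle mitochondrial RNA had 0 genes higher and 7 of 12 lower with either infusion, among them Slirp, a partner of the mRNA stabiliser Lrpprc, which fell from 25.4 ± 5.2 to 10.8 ± 1.18 CPM with saline (log2 -1.25, SE 0.15, adjusted p = 0.000172).

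Genes of the polymerases that make these RNAs were mixed. For RNA polymerase III and its factors, 6 of 29 rose and 12 fell with saline (median log2 -0.21), and 8 rose and 12 fell with nicotine. Bdp1, a subunit of the initiation factor TFIIIB, rose by log2 1.60 with nicotine (SE 0.21, adjusted p = 0.000102) and Crcp, a polymerase III subunit, fell by log2 0.80 (SE 0.10, adjusted p = 6.96e-05). The saline count of 12 lower became 7 without both 7-month libraries numbered 1, and that of 6 higher became 10 without 7-month saline library 2. For RNA polymerase I and ribosomal RNA factors, 1 of 33 rose and 11 fell with saline, and 5 rose and 16 fell with nicotine. Nop56, a core protein of small nucleolar ribonucleoproteins, fell from 107 ± 13.1 to 75.8 ± 3.77 CPM with saline (log2 -0.51, SE 0.09, adjusted p = 0.00127). The saline counts became 3 higher and 17 lower without 7-month saline library 2, and 7 were lower without both 7-month libraries numbered 3 or numbered 1. The 5 higher with nicotine became 2 without 7-month nicotine library 3, and 3 without 7-month nicotine library 2 or 18-month nicotine library 2 or 3, or with no filter. In the exosome and RNA decay list, 1 of 20 rose and 10 fell with saline, and 4 rose and 9 fell with nicotine. Xrn1, the cytoplasmic 5′ to 3′ exonuclease, was the one that rose with saline (3 rose without 7-month saline library 2), from 29.2 ± 7.93 to 53.5 ± 1.76 CPM (log2 0.87, SE 0.13, adjusted p = 0.000582). The 10 lower became 5 without 7-month saline library 1 or without both 7-month libraries numbered 3, 6 without 7-month saline library 3 or 18-month saline library 1 or 3, and 4 without both 7-month libraries numbered 1.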

How the data were processed

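The authors deposited whole-number counts per gene in 2 tables, one of 7-month and one of 18-month libraries. Submitters' processing notes name TopHat and GRCm38; the counter, its strand setting and its treatment of multiply mapped reads are not given in the sources used here, so reads of a gene and of an antisense partner may be mixed. Groups came from the labels. CPM were computed from total counts. Tests used edgeR 4.0.16 in R 4.3.3 (TMM, filterByExpr, quasi-likelihood, Benjamini-Hochberg over all genes, 0.05): nicotine with 6 libraries of the same age in the fit, other comparisons with all 12. Fits were tested on simulated data with 200 changed genes, where 2-fold changes were recovered at 70% (nicotine, 7 months), 91% (nicotine, 18 months) and 48% (difference between ages). Of the simulated calls, 7.69%, 12.8% and 5.41% were false in these fits, all above the 5% aimed at. The age fits recovered 66% (saline) and 77% (nicotine) of 2-fold changes, with 4.19% and 5.56% of calls false. Changed genes were drawn at random among genes above 1 CPM, so these shares do not describe the 5 genes. At 7 months the log2 SE of the 3 that passed the filter was 1.55 to 1.58. The ratio of a gene to Rn18s-rs5 was compared by exact two-sided permutation of libraries. Sequences came from RefSeq (GRCm38.p6) and GENCODE M21 with BLAST 2.17.0.

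The 5 genes and all gene lists were chosen with earlier results of these data known. Named genes are the 5, the 5 nearest genes to each, up to 4 genes of smallest p per list and comparison, structural RNA rows with a mean of at least 1 CPM, and Malat1. Alternatives were RLE scaling, library sizes without structural RNAs, no filter, DESeq2 1.42.0, a replicate block, all 12 libraries in 1 fit, leaving out each library, and leaving out both 7-month libraries numbered 3 or numbered 1. Some genes that this rule takes are not reported here.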

Additional observations from a re-analysis of the deposited data

Results flagged for a closer look

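The ratio of Lars2 to Rn18s-rs5 differed between nicotine and saline libraries in opposite directions at the 2 ages. It was 22.1 ± 0.318 per 100 with saline and 20.6 ± 0.385 with nicotine at 7 months, and 22.3 ± 0.291 with saline and 23.7 ± 0.484 with nicotine at 18 months (SD, n = 3 each). At 7 months the saline libraries had 22.1, 21.7 and 22.4 and the nicotine libraries 20.1, 20.9 and 20.8, so every nicotine library was lower. At 18 months the saline libraries had 22.0, 22.6 and 22.3 and the nicotine libraries 23.2, 24.2 and 23.6, so every nicotine library was higher. The log2 ratio differed by -0.10 at 7 months and 0.09 at 18 months (exact two-sided permutation p = 0.1 each, the smallest that 3 against 3 libraries allow). The difference between ages was 0.19, with exact p = 0.005 over 400 relabellings of the infusion within age, the smallest they can give. Adjusted over the 12 tests of 4 ratios this p is 0.06, which does not pass 0.05. The adjusted permutation p at each age alone is 0.4. The ratio was tested after its values had been seen. Leaving out 1 library at a time gave 0.17 to 0.20. Leaving out both 7-month libraries numbered 3 gave 0.18 (exact p = 0.0167, the smallest that those libraries can give). Ratios of Rn7sk, Rmrp and Rpph1 to Rn18s-rs5 had overlapping groups at both ages.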

How the results depend on the processing

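Counts of nicotine calls over all genes moved with the setting. At 7 months the 2 calls became 6 with no filter, 85 with DESeq2, 5 without both libraries numbered 3, 0 without both libraries numbered 1 (899 at an unadjusted p under 0.05) and 9 with all 12 libraries in 1 fit. Leaving out single libraries gave 0 to 2. At 18 months the 8 calls became 35 with no filter, 60 with DESeq2 and 0 with all 12 libraries in 1 fit (505 unadjusted), and single libraries left out gave 5 to 21. The difference between ages had 37 calls with DESeq2, 3 without both 7-month libraries numbered 3, 2 without both numbered 1, and 0 to 3 with single libraries left out. With the replicate block the counts were 1 at 7 months, 9 at 18 months and 0 for the difference (1263 unadjusted); same-numbered libraries had correlations of -0.135 to 0.0924, so the numbers were not used as pairs. The age calls with saline were 5867 without both 7-month libraries numbered 3, 5852 without both numbered 1 and 6251 to 11793 with single libraries left out, and with nicotine 10137 to 12688. The median age change over all genes, -0.03 with either infusion, was 0.08 (saline) and 0.10 (nicotine) with DESeq2.

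No nicotine change of the 5 genes was called where a setting gave an adjusted p, but signs turned. DESeq2 gave none for Rn18s-rs5, Rn7sk and Lars2 at 7 months or for these and Rpph1 in the difference between ages, and Rmrp and Rpph1 were not tested at 7 months. Without both libraries numbered 3 the log2 changes at 7 months were 0.37 (Rn18s-rs5), 0.39 (Rn7sk) and 0.27 (Lars2), and the differences between ages -0.43, -0.47, -1.26 (Rmrp) and -0.25 (Lars2). With single libraries left out they ran, at 7 months, from -3.36 to 2.73 (Rn18s-rs5), -3.48 to 3.17 (Rn7sk) and -3.48 to 2.65 (Lars2), the extremes coming without nicotine or saline library 3. At 18 months the ranges were -0.13 to 0.04, -0.21 to 0.15, -0.29 to 0.10 (Rmrp), -0.37 to 0.03 (Rpph1) and -0.06 to 0.13 (Lars2). For the difference between ages they were -2.81 to 3.31, -3.27 to 3.41, -4.09 to 3.73, -3.55 to 4.28 and -2.65 to 3.52. The 20 mean levels of the 5 genes by group moved by less than the spread between libraries under all 3 scalings tried (60 values). In the 7-month groups that spread was 139% to 168% of the mean, so this comparison could hardly fail there. Counts of 2 to 7 for Rmrp and Rpph1 limit their 7-month ratios. The cause of these changes was not tested.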
